A study of Mus musculus with 24 samples.

Results

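The glutathione transferases described here are 10 genes, picked out by their gene symbols, of 18193 genes that single-symbol probe sets of the array name. They are the mu class genes Gstm1, Gstm2, Gstm3, Gstm4 and Gstm6, the alpha class genes Gsta3 and Gsta4, the theta class genes Gstt1 and Gstt2, and the pi class gene Gstp1. Affymetrix mouse arrays measured liver RNA of 24 female NMR1 mice, 1 array per mouse, after 2 weeks on a diet that began at 8 weeks of age. The 6 mice of the cafeteria diet (HumanCafe) ate cooked canteen meals, the 6 of the fast food diet (FastFood) ate only fast food, the 6 of the chimpanzee diet (Chimpanzee) ate fruit, vegetables and yogurt, and the 6 of the pellet diet (Pellet) stayed on the feed they were raised on. The cafeteria and fast food mice together are called the human diets (12 mice), and each diet had 3 mice in each of 2 processing batches. All mice were of the same strain, sex and starting age, and no label says which animals were littermates. As a model, each diet stands for a single menu, eaten freely, and the fast food mice gained more weight than the others.

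Glutathione transferases join the tripeptide glutathione to reactive and foreign molecules, which makes these more soluble and marks them for export from the cell. The soluble enzymes work as pairs of subunits and fall into classes, each with its own range of substrates, and the liver is among the richest sources of them. In mouse liver, several of these genes are induced by plant compounds and drugs, through the transcription factor NRF2 (gene Nfe2l2) and through the nuclear receptors CAR (Nr1i3) and PXR (Nr1i2). The comparison of human, chimpanzee and pellet diets asks how far the expression of these enzymes follows the food.

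The members were read by 15 probe sets (short DNA sequences on the array whose signals are summed up in 1 value), and all 15 passed a filter that removed low values. Gstm1 had 4 probe sets, Gstm3 and Gsta3 had 2 each, and the other genes had 1. No probe set was annotated to a member together with another gene. Names that end in _x_at or _s_at, which 2 of the Gstm1 probe sets and 1 of Gstm3 carry, mark probes that may also read related transcripts, and names in _a_at, as for Gstm6 and Gstp1, mark probes that read several transcripts of a gene. Because mu class genes are close relatives, and Gstp1 has a near copy beside it on its chromosome, values of these genes may include signal from a relative. All values are log2 expression, so that a difference of 1 is a doubling of the signal, and levels of different probe sets are not set against each other.

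The 5 measured hepatocyte markers averaged 11.81 to 12.28 in every mouse, while neither of the 2 adipocyte markers on the array passed the filter. The 90th percentile of an array's values, a measure of its range, was 6.42 to 6.62 in batch 1 and 5.67 to 6.35 in batch 2, and arrays correlated with each other at 0.925 to 0.996. The 4 arrays of lowest range were all of batch 2. They were chimpanzee replicates 1 and 2 (5.80 and 5.88), fast food replicate 2 (5.86) and cafeteria replicate 3 (5.67). The difference between the 3' and 5' control probe sets of beta-actin, which grows with RNA degradation, was 0.85 ± 0.11 (SD, n = 12) under the human diets and 1.08 ± 0.15 (SD, n = 6) under the chimpanzee diet (exact permutation p = 0.000992, adjusted over 8 tests 0.00794). The chimpanzee-diet mean of 1.08 ± 0.15 was also above the pellet-diet mean of 0.75 ± 0.14 (SD, n = 6 each, exact permutation p = 0.005, the smallest this design allows, adjusted 0.02). Between the human and pellet diets the exact permutation p was 0.12 (adjusted 0.24). Fast food batch 2 replicate 2 held the lowest value of its diet for all 15 member probe sets, so results that change without this mouse are given both ways.

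Across the 4 diets, 4 of the 15 member probe sets differed (limma with Benjamini-Hochberg adjustment over all 25541 probe sets tested, threshold 0.05), where 7.22% of all probe sets did. They read Gstm4 (adjusted p = 0.000138), Gstm6 (adjusted p = 0.00158), Gstt2 (adjusted p = 0.005) and Gstm2 (adjusted p = 0.0186). The 3 mu class genes were highest in livers of pellet-fed mice, and Gstt2 was highest in livers of cafeteria-fed mice. Probe sets of Gstm1, Gstm3, Gsta3, Gsta4, Gstt1 and Gstp1 did not pass, with adjusted p from 0.0641 for Gsta4 to 0.813 for a Gstm1 probe set.

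**Figure D1:**
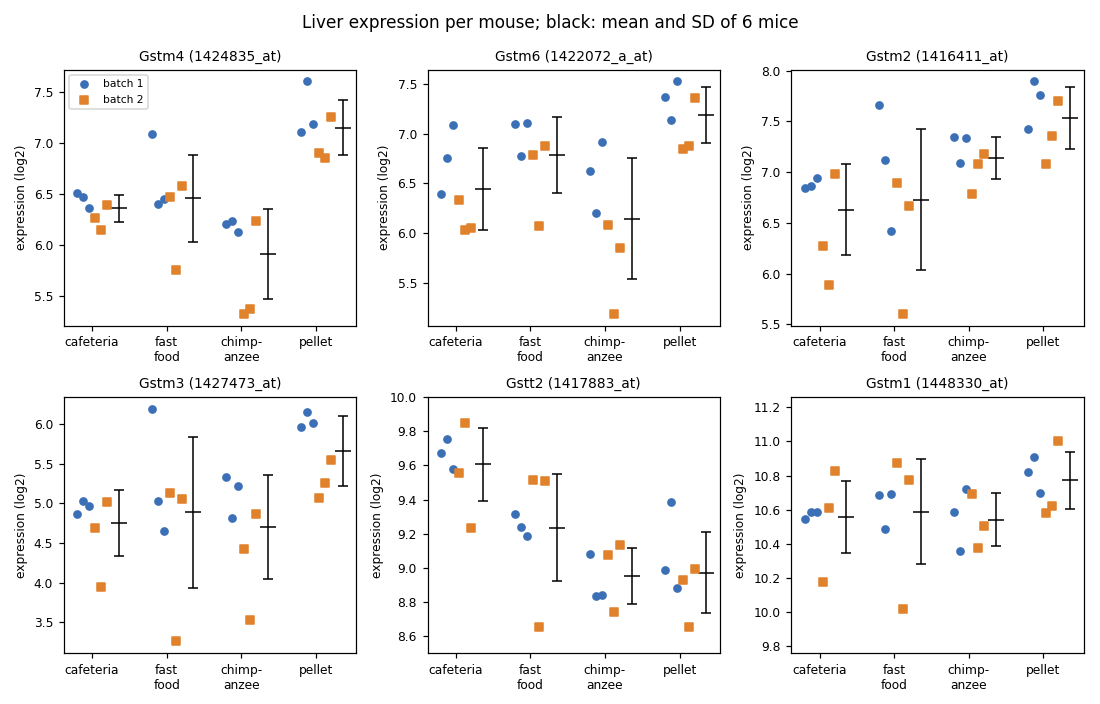
Log2 expression per mouse (vertical axis) by diet (horizontal axis) for Gstm4, Gstm6, Gstm2, one Gstm3 probe set, Gstt2 and one Gstm1 probe set; circles are batch 1 mice, squares batch 2 mice, and black marks the mean and SD of 6 mice. Gstm4 stood at 5.33 to 6.24 in chimpanzee-diet livers and 6.85 to 7.60 in pellet-diet livers, and the Gstm1 means were 10.54 under the chimpanzee diet and 10.77 under the pellet diet.

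Gstm4 encodes a mu class subunit and was the member with the smallest p across the diets. Its probe set read 6.15, 6.38 and 6.51 (lowest, median and highest of 6 mice) under the cafeteria diet, 5.76, 6.46 and 7.08 under the fast food diet, 5.33, 6.17 and 6.24 under the chimpanzee diet, and 6.85, 7.14 and 7.60 under the pellet diet. All chimpanzee-diet mice lay below all pellet-diet mice, and so did all cafeteria-diet mice, while only the highest fast food mouse reached into the pellet range. Chimpanzee minus pellet was -1.23 ± 0.16 (SE, limma adjusted p = 1.73e-05), a 2.35-fold lower signal, at -1.11 in batch 1 and -1.35 in batch 2. The 2 lowest chimpanzee-diet mice, at 5.33 and 5.37, were on 2 of the 4 arrays of lowest range. The call held without those 4 arrays. Human minus pellet was -0.74 ± 0.12 (SE, limma adjusted p = 0.00104), with -0.75 in batch 1 and -0.73 in batch 2. In the order chimpanzee, cafeteria, fast food, pellet, the neighbours fast food and pellet differed (fast food minus pellet -0.69, limma adjusted p = 0.0128). Cafeteria and fast food were not separated (cafeteria minus fast food -0.10, 95% interval -0.42 to 0.23), nor were cafeteria and chimpanzee after adjustment (0.44, limma adjusted p = 0.24). In bulk liver, fewer cells that express a gene and less RNA of it per cell cannot be told apart.

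Gstm6, another mu class subunit, was also lowest under the chimpanzee diet and highest under the pellet diet, with a wider spread. It read 6.03, 6.37 and 7.08 under the cafeteria diet, 6.07, 6.83 and 7.11 under the fast food diet, 5.19, 6.14 and 6.92 under the chimpanzee diet, and 6.84, 7.25 and 7.52 under the pellet diet. The chimpanzee-diet range touched the pellet-diet range only through its highest mouse. Its lowest mouse, chimpanzee batch 2 replicate 2 (5.19), was on 1 of the 4 arrays of lowest range. Chimpanzee minus pellet was -1.04 ± 0.17 (SE, limma adjusted p = 0.000361), a 2.06-fold lower signal, with -0.76 in batch 1 and -1.32 in batch 2. Human minus pellet was -0.57 ± 0.14 (SE, limma adjusted p = 0.0247), and this call was lost when pellet batch 1 replicate 1 (adjusted p = 0.0557), pellet batch 1 replicate 3 (0.0723) or pellet batch 2 replicate 3 (0.085) was left out. Of the human diets, cafeteria minus pellet was -0.74 (limma adjusted p = 0.0125) and fast food minus pellet was -0.40 (limma adjusted p = 0.334). The direct difference, cafeteria minus fast food, was -0.34 with a 95% interval of -0.70 to 0.01.

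Gstm2 is a mu class subunit as well, but its lowest levels were found under the human diets. It read 5.88, 6.85 and 6.98 under the cafeteria diet, 5.60, 6.78 and 7.66 under the fast food diet, 6.78, 7.14 and 7.34 under the chimpanzee diet, and 7.08, 7.56 and 7.89 under the pellet diet. All cafeteria mice lay below all pellet mice. Human minus pellet was -0.85 ± 0.19 (SE, limma adjusted p = 0.0133), a 1.81-fold lower signal, with -0.72 in batch 1 and -0.99 in batch 2. Both human diets were below pellet on their own, by -0.90 for cafeteria (limma adjusted p = 0.0125) and -0.81 for fast food (limma adjusted p = 0.0328). The fast food call was lost without fast food batch 2 replicate 2 (-0.62, adjusted p = 0.0739), fast food batch 1 replicate 3, or pellet replicate 2 or 3 of either batch, with adjusted p up to 0.101. Between chimpanzee and pellet the difference was -0.40, with a 95% interval of -0.83 to 0.03 (limma adjusted p = 0.294).

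Gstm3, a further mu class subunit, was read by 2 probe sets with differences of the same sign. The first read 3.94, 4.91 and 5.02 under the cafeteria diet, 3.26, 5.04 and 6.19 under the fast food diet, 3.53, 4.84 and 5.33 under the chimpanzee diet, and 5.07, 5.75 and 6.14 under the pellet diet. The second, which carries the suffix _s_at, read 6.96, 7.67 and 8.39 under the cafeteria diet, 6.47, 7.55 and 8.67 under the fast food diet, 6.90, 7.76 and 8.04 under the chimpanzee diet, and 8.24, 8.50 and 8.81 under the pellet diet. On the second, all chimpanzee-diet mice lay below all pellet-diet mice, and on the first the ranges overlapped. Chimpanzee minus pellet was -0.97 ± 0.28 on the first (SE, limma adjusted p = 0.0328) and -0.88 ± 0.29 on the second (SE, limma adjusted p = 0.0562). The first call was lost in 8 of the 24 fits that left out 1 mouse, namely without chimpanzee batch 1 replicate 2, batch 2 replicate 1 or batch 2 replicate 2, or without any pellet mouse other than batch 2 replicate 1, with adjusted p up to 0.0953. It was also lost with no filter on low values, with batch left out, in each batch alone and with the beta-actin difference as covariate. A fit after the study's methods lost it too. The lowest mice on this probe set, fast food (3.26) and chimpanzee (3.53) batch 2 replicate 2, lay near the filter level of 3.1472. Both were on arrays of lowest range, and the call held without those 4 arrays. Human minus pellet was -0.85 on the first and -0.83 on the second (limma adjusted p = 0.0585 and 0.0776). The first was called without any one of fast food batch 1 replicate 1, batch 2 replicate 1, 2 or 3, or cafeteria batch 2 replicate 3, with adjusted p from 0.0164 to 0.046. Without fast food batch 2 replicate 2, limma also called chimpanzee minus pellet on the second probe set (-0.88, adjusted p = 0.0251) and cafeteria minus pellet on the first (-0.91, adjusted p = 0.0217).

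Gstm1, a major mu class subunit of mouse liver, was not called on any of its 4 probe sets. The one of highest mean averaged 10.57 ± 0.25 (SD, n = 12) under the human diets, 10.54 ± 0.16 (SD, n = 6) under the chimpanzee diet and 10.77 ± 0.17 (SD, n = 6) under the pellet diet. Over its 4 probe sets, human minus pellet ran from -0.20 to -0.10 and chimpanzee minus pellet from -0.23 to -0.13. The 95% intervals of chimpanzee minus pellet reached down to -0.49 at most, so that a difference of -1, the size seen for Gstm6, lay outside each of them.

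**Figure D2:**
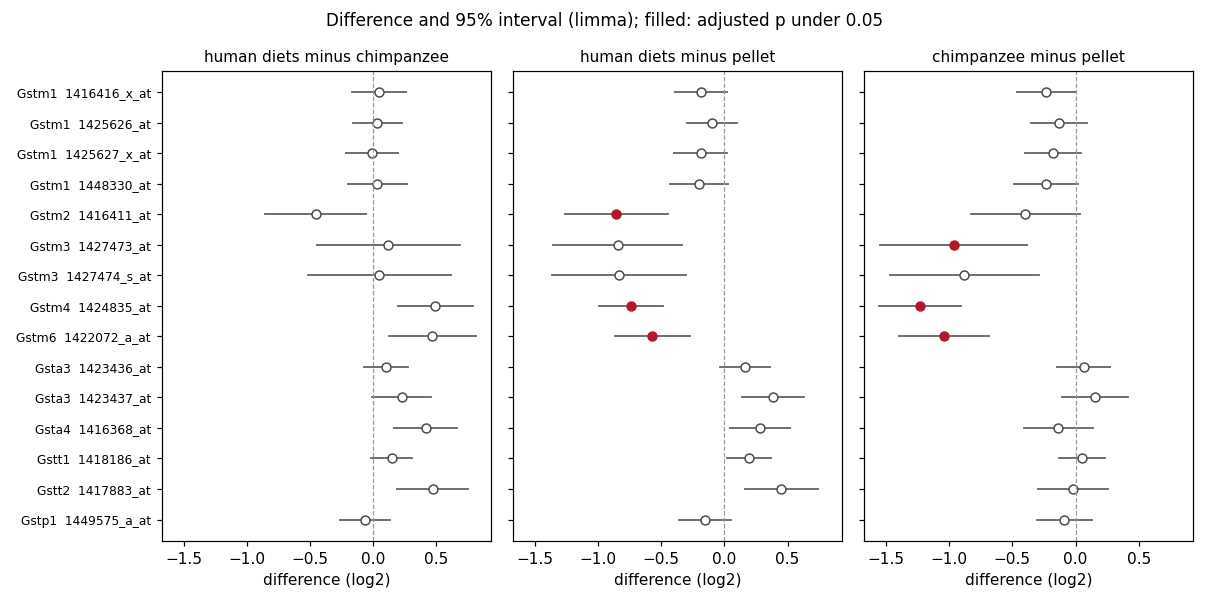
Difference in log2 expression (horizontal axis) with its 95% interval for each of the 15 member probe sets (rows), for human diets minus chimpanzee, human diets minus pellet and chimpanzee minus pellet; filled points passed an adjusted p of 0.05. The filled points are Gstm2, Gstm4 and Gstm6 in human minus pellet (-0.85, -0.74 and -0.57) and Gstm3, Gstm4 and Gstm6 in chimpanzee minus pellet (-0.97, -1.23 and -1.04).

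The main fit took the deposited values with diet and batch, and weighted or left out no array. In it, the members called for human minus pellet and chimpanzee minus pellet were of the mu class and lower. Of the 15 member probe sets, 3 were called lower under the human diets than under pellet and 0 higher, where 4.03% of all probe sets were called (2.35% lower and 1.68% higher). Under the chimpanzee diet 3 were called lower than under pellet and 0 higher, where 8.7% of all probe sets were called (6.14% lower and 2.56% higher). The median member difference was -0.18 for human minus pellet and -0.18 for chimpanzee minus pellet, beside medians of -0.0033 and 0.0014 over all probe sets. These comparisons share the pellet mice. Other scalings and other treatments of the arrays called members of other classes higher under the human diets than under pellet. With cyclic loess these were Gsta3 (0.37 on its second probe set, limma adjusted p = 0.00599), Gsta4 (0.27, adjusted p = 0.0385) and Gstt2 (0.43, adjusted p = 0.0251), beside lower calls for both Gstm3 probe sets. The same 3 genes were called higher with the 90th percentile as covariate (adjusted p from 0.0155 to 0.0401), with array weights and without the 4 arrays of lowest range, and in the last 2 settings Gstt1 was as well (0.23 and 0.25, adjusted p = 0.0415 and 0.0427). Of the single human diets, cafeteria against pellet gave 4 calls, 3 mu class genes lower and Gstt2 higher, where 3.75% of all probe sets were called (2.3% lower and 1.45% higher). Fast food against pellet gave 2, Gstm2 and Gstm4, both lower, where 2.87% of all were called (1.5% lower).

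Between the human diets and the chimpanzee diet 0 of the 15 probe sets passed the limma test after adjustment, where 0.767% of all did, and 5 had an unadjusted p under 0.05, where 13.2% of all did. These 5 read Gstm4, with human minus chimpanzee at 0.49 ± 0.14 (SE, limma adjusted p = 0.107), Gstt2 at 0.47 ± 0.14 (adjusted p = 0.108), Gstm6 at 0.47 ± 0.17 (adjusted p = 0.203), Gsta4 at 0.42 ± 0.12 (adjusted p = 0.106) and Gstm2 at -0.46 ± 0.19 (adjusted p = 0.297). Without fast food batch 2 replicate 2, limma called Gstm4 (0.54, adjusted p = 0.0474) and Gstt2 (0.54, adjusted p = 0.0115). Gstm4 was also called without chimpanzee batch 2 replicate 3 (0.60, adjusted p = 0.0459), and Gsta4 without cafeteria batch 2 replicate 3 (0.44, adjusted p = 0.0476).

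The beta-actin measure of RNA quality moved with the chimpanzee diet. It was 0.88 to 1.34 in chimpanzee-diet mice and 0.61 to 0.98 in pellet-diet mice, so that a fit with it as covariate removes diet differences along with it, and the parts of diet and RNA quality cannot be told apart. With it as covariate, chimpanzee minus pellet was -1.03 for Gstm4 (limma adjusted p = 0.0217), -0.78 for Gstm6 (adjusted p = 0.151) and -0.48 for the first Gstm3 probe set (adjusted p = 0.801). Human minus pellet became -0.70 for Gstm4 (adjusted p = 0.00548), -0.73 for Gstm2 (adjusted p = 0.0654) and -0.49 for Gstm6 (adjusted p = 0.105). No other member was called in these comparisons in that fit. Cafeteria minus pellet became -0.82 for Gstm2 (limma adjusted p = 0.0729) and -0.62 for Gstm6 (adjusted p = 0.0962), which were then not called. Gstm4 (-0.70, limma adjusted p = 0.0305) and Gstt2 (0.67, adjusted p = 0.0143) stayed called in cafeteria minus pellet. Gsta4, which the main fit did not call, was called there as well (0.51, limma adjusted p = 0.0429).

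**Figure D3:**
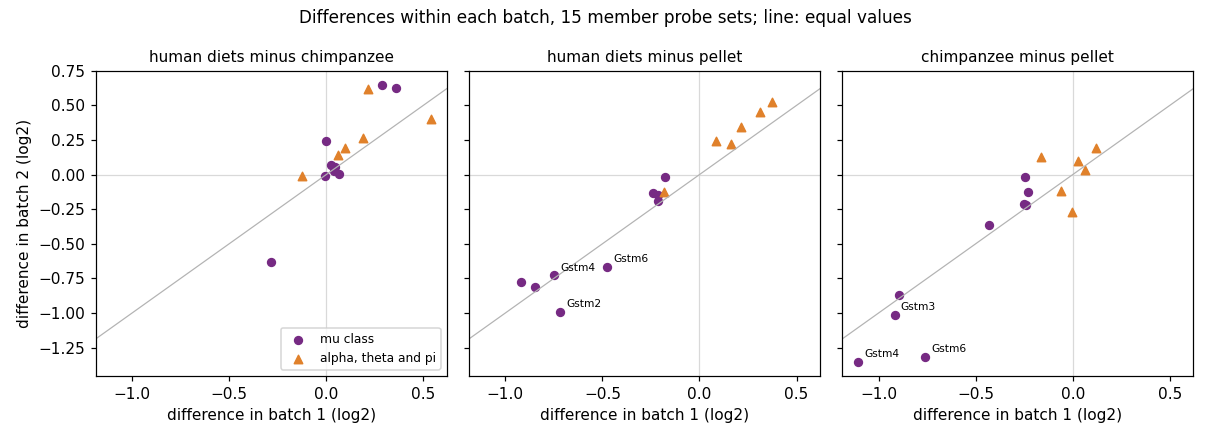
Differences in log2 expression of the 15 member probe sets in batch 1 (horizontal axis) and in batch 2 (vertical axis) for the 3 main comparisons; circles are mu class, triangles alpha, theta and pi class, the line marks equal values, and called members carry their names. Gstm4 lay at -1.11 and -1.35 for chimpanzee minus pellet and at -0.75 and -0.73 for human minus pellet.

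The mu class genes form a single run on mouse chromosome 3. In the RefSeq gene table (GRCm38.p6) the order is Gstm5, Gstm7, Gstm6, Gstm3, Gstm2, Gstm1 and Gstm4, with 0 protein-coding genes between neighbours. Size of change did not follow this order. Gstm1 lies between Gstm2 and Gstm4, both of which were called in human minus pellet while Gstm1 was not. In chimpanzee minus pellet, Gstm2 was not called either. The 2 mu genes outside the member list, Gstm5 and Gstm7, were lower under the chimpanzee diet than under pellet as well, by -0.82 ± 0.14 (SE, limma adjusted p = 0.000522) and -0.75 ± 0.16 (SE, limma adjusted p = 0.00363).

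**Figure D4:**
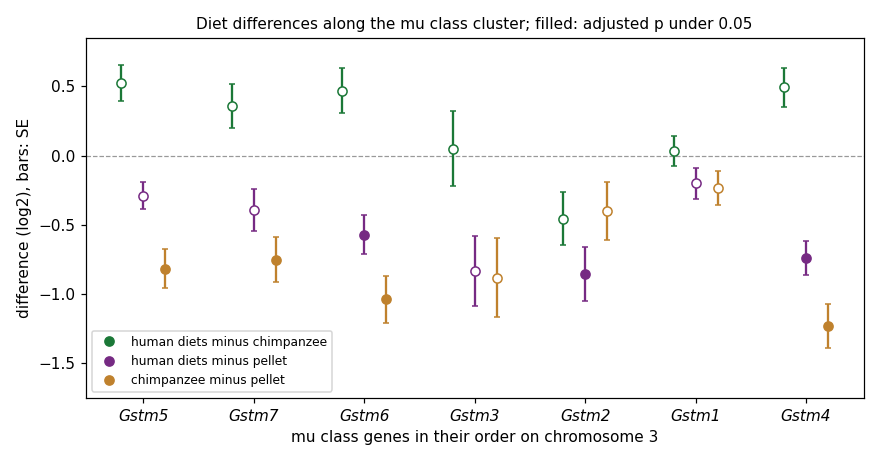
Differences in log2 expression with SE (vertical axis) for the 7 mu class genes in their order on chromosome 3 (horizontal axis, not to scale), each read by its probe set of highest mean; filled points passed an adjusted p of 0.05. Chimpanzee minus pellet was -1.23 for Gstm4 and -1.04 for Gstm6, and the Gstm1 point between Gstm2 and Gstm4 was -0.23; Gstm3 is shown by its second probe set, which was not called.

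Whether genes differed in their response was tested on the difference between their log2 values in each mouse, with exact permutation of diets within batches, each gene being read by its probe set of highest mean. This test was chosen after the values had been seen, so it was run on all 45 pairs of the 10 genes in 3 comparisons, and p-values were adjusted over these 135 tests, of which 77 passed. The difference of Gstm1 minus that of its neighbour Gstm4 was 1.00 in chimpanzee minus pellet (exact permutation p = 0.005, the smallest possible, adjusted 0.0121) and 0.54 in human minus pellet (exact permutation p = 0.000283, adjusted 0.00294). Gstm1 minus Gstm2 was 0.65 in human minus pellet (exact permutation p = 0.00213, adjusted 0.0106) and 0.17 in chimpanzee minus pellet (exact permutation p = 0.195, adjusted 0.258). Gstm2 minus Gstm4 was -0.95 in human minus chimpanzee (exact permutation p = 0.000142, the smallest possible, adjusted 0.00274) and 0.83 in chimpanzee minus pellet (exact permutation p = 0.005, adjusted 0.0121). In human minus pellet it was -0.12 (exact permutation p = 0.402, adjusted 0.485). Gstm4 minus Gstm6 was -0.19 in chimpanzee minus pellet (exact permutation p = 0.445, adjusted 0.532). Gstm4 minus Gstt2 was -1.19 in human minus pellet (exact permutation p = 0.000142, adjusted 0.00274). Probe sets can differ in how steeply their signal follows RNA, so these are differences in measured signal.

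Sequences upstream of the start sites are shown for Gstm4, Gstm6 and Gstm2, which were called, and for their neighbour Gstm1, which was not, together with Gsta3, the member with an antioxidant response element core. Each line holds the 250 bases before the start site of the first listed transcript, from RefSeq on GRCm38.p6, in lower case with motif matches in capitals.
Gstm4, chr3:108044860-108045109, minus strand: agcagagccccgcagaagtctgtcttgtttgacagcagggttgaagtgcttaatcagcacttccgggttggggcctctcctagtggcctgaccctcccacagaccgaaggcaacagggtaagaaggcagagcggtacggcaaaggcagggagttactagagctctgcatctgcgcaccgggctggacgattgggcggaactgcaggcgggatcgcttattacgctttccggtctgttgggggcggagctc
Gstm6, chr3:107953467-107953716, minus strand: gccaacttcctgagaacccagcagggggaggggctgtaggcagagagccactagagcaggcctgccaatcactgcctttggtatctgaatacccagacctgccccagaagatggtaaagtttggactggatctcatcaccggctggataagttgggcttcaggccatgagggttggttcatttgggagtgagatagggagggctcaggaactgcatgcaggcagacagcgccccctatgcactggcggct
Gstm2, chr3:107986421-107986670, minus strand: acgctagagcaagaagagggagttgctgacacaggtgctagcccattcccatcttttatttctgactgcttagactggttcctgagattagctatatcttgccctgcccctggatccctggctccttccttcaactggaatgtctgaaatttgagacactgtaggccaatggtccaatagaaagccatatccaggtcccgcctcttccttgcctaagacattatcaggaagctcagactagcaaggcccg
Gstm1, chr3:108017974-108018223, minus strand: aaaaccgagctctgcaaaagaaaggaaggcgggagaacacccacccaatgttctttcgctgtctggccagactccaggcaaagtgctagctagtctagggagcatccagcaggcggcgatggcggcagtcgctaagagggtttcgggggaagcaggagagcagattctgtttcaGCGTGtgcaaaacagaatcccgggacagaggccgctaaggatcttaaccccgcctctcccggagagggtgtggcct
Gsta3, chr1:21240335-21240584, plus strand: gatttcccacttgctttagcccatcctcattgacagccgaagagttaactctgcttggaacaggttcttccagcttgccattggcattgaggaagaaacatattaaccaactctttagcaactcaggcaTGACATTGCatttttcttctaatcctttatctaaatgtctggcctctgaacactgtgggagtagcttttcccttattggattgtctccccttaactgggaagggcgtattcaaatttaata

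Of the 10 members, 8 were found in the promoter table, and Gsta4 and Gstt2 were not. Motifs were sought on both strands in these windows of 250 bases: the antioxidant response element core TGACNNNGC, the core GCGTG that the aryl hydrocarbon receptor binds, and the nuclear receptor half-site AGGTCA, which 10.2%, 28.2% and 14% of 32851 windows of all genes held. No window of Gstm2, Gstm3, Gstm4 or Gstm6 held any of the 3. The printed Gstm1 window held GCGTG with its first base at -76 from the start site, Gstp1 held it at -13, and Gsta3 held TGACNNNGC at -121. No member window held AGGTCA. Of the mu genes outside the member list, Gstm5 held TGACNNNGC at -42 and GCGTG at -171 and -38, the match at -38 overlapping the first motif, and Gstm7 held TGACNNNGC at -129 in the second of its windows. A match describes the letters in the window and is no measured binding site.

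Gstt2 encodes a theta class subunit, and its human minus pellet difference had the opposite sign to those of the mu genes. In human minus chimpanzee Gstt2 and Gstm4 both had positive differences, and Gstm4 minus Gstt2 was 0.02 (exact permutation p = 0.905, adjusted 0.919). Gstt2 read 9.23, 9.63 and 9.85 under the cafeteria diet, 8.65, 9.28 and 9.51 under the fast food diet, 8.74, 8.96 and 9.14 under the chimpanzee diet, and 8.66, 8.96 and 9.38 under the pellet diet. All cafeteria mice lay above all chimpanzee-diet mice, while the fast food range overlapped both. Cafeteria minus chimpanzee was 0.66 ± 0.13 (SE, limma adjusted p = 0.0153), a 1.58-fold higher signal, and was the only member call in that comparison, where 0.861% of all probe sets were called (0.599% higher). It was lost without cafeteria batch 1 replicate 2 (adjusted p = 0.052) or cafeteria batch 2 replicate 2 (0.0585), with the beta-actin difference as covariate (0.61, adjusted p = 0.123) and with batch left out of the fit (adjusted p = 0.0532). Cafeteria minus pellet was 0.64 ± 0.13 (SE, limma adjusted p = 0.00506).

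Fast food minus chimpanzee was 0.28 for Gstt2 (limma adjusted p = 0.318), and no member was called by limma in that comparison, where 1.25% of all probe sets were. An unadjusted p under 0.05 was found for 5 member probe sets and 14.6% of all. Without fast food batch 2 replicate 2, fast food minus chimpanzee was called for Gstm4 (0.65, limma adjusted p = 0.0165) and Gstm6 (0.73, limma adjusted p = 0.0192). Cafeteria minus fast food was 0.37 for Gstt2, with a 95% interval of 0.10 to 0.64 and an unadjusted p of 0.01 (limma adjusted p = 0.824), and it was the only member with an unadjusted p under 0.05 between the human diets. No member was called there by limma, where 0.0235% of all probe sets were and 5.16% of all had an unadjusted p under 0.05. For Gstt2, chimpanzee minus pellet was -0.02, with a 95% interval of -0.29 to 0.25. Human minus pellet was 0.45 ± 0.14 (SE, limma adjusted p = 0.0806), and it was called without fast food batch 2 replicate 2 (0.52, adjusted p = 0.00998).

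The other theta, alpha and pi class members were not called in any comparison in the main fit. Array weights or leaving out arrays, on the same deposited values, called Gsta3, Gsta4 and Gstt1 in some comparisons. With cyclic loess, cafeteria minus pellet was called for Gsta3 (0.32 on its second probe set, limma adjusted p = 0.0341), Gsta4 (0.36, adjusted p = 0.018), Gstt1 (0.19, adjusted p = 0.0412) and Gstp1 (-0.27, adjusted p = 0.0191), and cafeteria minus chimpanzee for Gsta4 (0.40, adjusted p = 0.0198). Gstt1, the second theta subunit, lay between 9.69 and 10.32 in all 24 mice, and human minus pellet was 0.19 with a 95% interval of 0.02 to 0.37 (limma adjusted p = 0.287). Gstp1, the pi class subunit, lay between 10.47 and 11.27, and its human minus pellet difference was -0.15 with a 95% interval of -0.36 to 0.05.

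Gsta3, an alpha class subunit that is abundant in mouse liver, was read by 2 probe sets. The first lay between 10.73 and 11.45 in all mice, with human minus pellet at 0.16 (limma adjusted p = 0.524). The second averaged 8.70 ± 0.26 (SD, n = 12) under the human diets and 8.32 ± 0.25 (SD, n = 6) under the pellet diet, a difference of 0.38 ± 0.12 (SE, limma adjusted p = 0.0764; 0.0378 without fast food batch 2 replicate 2). Without that mouse, fast food minus pellet was called as well (0.54, limma adjusted p = 0.0115), against 0.45 (limma adjusted p = 0.0558) with it. Gsta4, the alpha class subunit known for conjugating products of lipid peroxidation, averaged 8.57 ± 0.28 (SD, n = 12) under the human diets, 8.16 ± 0.42 (SD, n = 6) under the chimpanzee diet and 8.29 ± 0.31 (SD, n = 6) under the pellet diet. Cafeteria minus chimpanzee was 0.50 ± 0.13 (SE, limma adjusted p = 0.08), and it was called without cafeteria batch 2 replicate 3 (0.57, adjusted p = 0.0208).

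**Figure D5:**
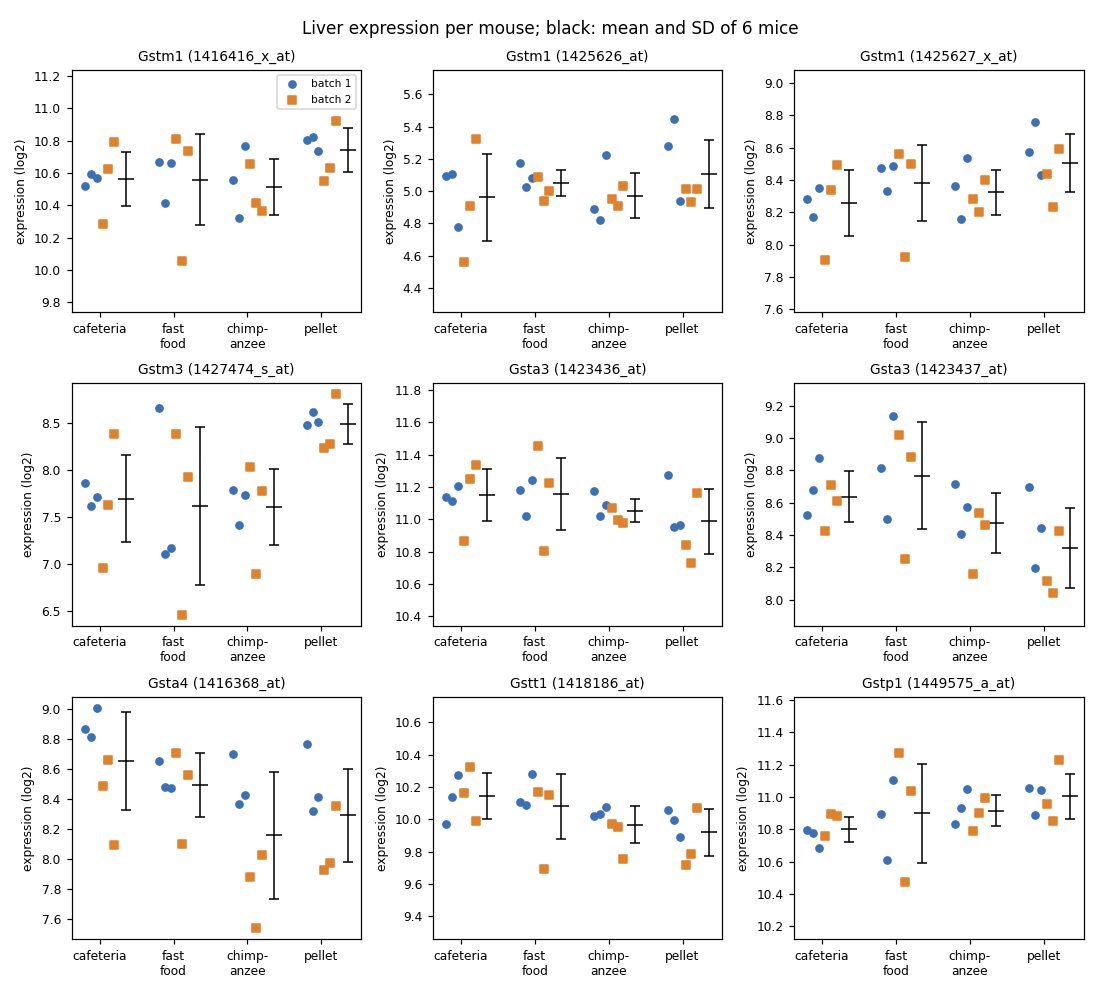
Log2 expression per mouse (vertical axis) by diet (horizontal axis) for the other 9 member probe sets; circles are batch 1 mice, squares batch 2 mice, and black marks the mean and SD of 6 mice. Gstt1 stayed between 9.69 and 10.32, and fast food batch 2 replicate 2 had the lowest fast food value in every panel.

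Among the members, deviations from the batch means correlated most closely for a pair of Gstm1 probe sets (r = 0.975 across 24 mice, given as a description, since the mice share diets and arrays). Gstm4 correlated at 0.826 with the first Gstm3 probe set, at 0.778 with Gstm6 and at 0.55 with Gstm2. It correlated at 0.0695 with Gstt2 and at -0.0889 with Gstt1.

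The probe sets of other genes whose pattern was most like that of Gstm4, again by correlation over 24 mice after removal of batch means, were S100a10 (0.931), Lss (0.923), Rhou (0.9), Rdh11 (0.898) and Pdzk1ip1 (0.892). Lss encodes lanosterol synthase, an enzyme of cholesterol synthesis, and chimpanzee minus pellet was -1.57 for it (limma adjusted p = 2.54e-05). Rdh11, a retinol dehydrogenase, had -2.65 (limma adjusted p = 7.49e-06), and S100a10, a protein of the annexin complex, had -1.50 (limma adjusted p = 1.87e-07). For Gstm6 the closest were Gtf3c6 (0.908), Mrps22 (0.892), 2 probe sets of Ran (0.891 and 0.873) and Ssr1 (0.874). Ran is a small GTPase of nuclear transport and Mrps22 a protein of the mitochondrial ribosome. Chimpanzee minus pellet for Mrps22 was -0.59 (limma adjusted p = 0.000805).

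Of 9 other transferases that passed the filter, 3 were lower under the chimpanzee diet than under pellet (Gstm5, Gstm7 and Gstk1; 8.7% of all probe sets were called there), 0 were called between the human diets and pellet by limma (4.03% of all), and 1 was called, with a positive difference, in human minus chimpanzee (Gstk1; 0.767% of all). Fast food minus chimpanzee gave 2 calls, Gstm5 (0.59, limma adjusted p = 0.034) and Gstk1 (0.74, limma adjusted p = 0.0132), and cafeteria minus chimpanzee gave Gstk1 (0.96, limma adjusted p = 0.00191). Gstk1, a kappa class enzyme of mitochondria and peroxisomes, read 10.04, 10.40 and 10.69 (lowest, median and highest of 12 mice) under the human diets, 8.69, 9.55 and 10.06 under the chimpanzee diet, and 10.07, 10.21 and 10.46 under the pellet diet. Human minus chimpanzee was 0.85 ± 0.15 (SE, limma adjusted p = 0.00789) and chimpanzee minus pellet -0.73 ± 0.15 (SE, limma adjusted p = 0.00277). The median chimpanzee minus pellet difference of these 9 genes was -0.34. Mgst3, a membrane-bound transferase, had human minus chimpanzee at 0.70 (limma adjusted p = 0.0897).

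Of 10 genes of glutathione synthesis and turnover, 2 were called between the human diets and pellet (1 higher and 1 lower, where 4.03% of all probe sets were called) and 4 between chimpanzee and pellet (2 higher and 2 lower, where 8.7% of all were). Over the 4 diets 3 were called (7.22% of all), and between cafeteria and pellet 3 (3.75% of all). Their median difference was -0.05 for human minus pellet and 0.15 for chimpanzee minus pellet. Ggct, which breaks down gamma-glutamyl dipeptides, was lower than under pellet in both comparisons, with human minus pellet at -0.97 (limma adjusted p = 0.000137) and chimpanzee minus pellet at -1.52 (limma adjusted p = 1.1e-06). Oplah, the oxoprolinase that acts after it, was higher, at 0.66 (limma adjusted p = 0.00424) and 0.70 (limma adjusted p = 0.00151). Gclc, the catalytic subunit of the rate-limiting step of synthesis, had human minus pellet at -0.32 (limma adjusted p = 0.31). Of 10 genes of glutathione-dependent reduction only Gsr, glutathione reductase, was called in the 3 main comparisons. Its chimpanzee minus pellet difference was -0.37 (limma adjusted p = 0.0144), where 8.7% of all probe sets were called. Of 5 conjugate exporters, Abcc3, a transporter of the sinusoidal membrane, was called in human minus chimpanzee (0.74, limma adjusted p = 0.0241; 0.767% of all probe sets). Over the 4 diets Abcc3 (limma adjusted p = 0.00982) and Abcg2 (limma adjusted p = 0.0487) were called, where 7.22% of all were.

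Of 14 regulators, 3 were higher under the human diets than under pellet (Nr1i3, Nr1i2 and Cebpb), where 4.03% of all probe sets were called, and the median difference of the list was 0.27 with 11 of 14 positive. Under the chimpanzee diet 5 were higher than under pellet (those 3 with Rxra and Hnf4a) and 1 was lower (Nfe2l2), where 8.7% of all were called, and the median was 0.22 with 10 of 14 positive. Nr1i3 read 7.98, 8.69 and 9.39 under the human diets, 8.52, 8.79 and 9.14 under the chimpanzee diet, and 7.61, 7.72 and 8.11 under the pellet diet. Its differences were 0.94 for human minus pellet (limma adjusted p = 7.79e-05) and 1.05 for chimpanzee minus pellet (limma adjusted p = 7.57e-06). Nfe2l2 was -0.56 for chimpanzee minus pellet (limma adjusted p = 0.0417).

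Of 9 receptor target genes, 1 was called in human minus chimpanzee, where 0.767% of all probe sets were. In human minus pellet 2 were called, both lower, where 4.03% of all were, and 3 of 9 differences were positive. Chimpanzee minus pellet gave 3 calls, all lower, where 8.7% of all were called, and 1 of 9 differences was positive. Cyp2b10, the classic target of CAR, read 6.04, 6.63 and 7.60 under the human diets, 4.27, 4.37 and 4.61 under the chimpanzee diet, and 5.95, 7.07 and 7.99 under the pellet diet. All chimpanzee-diet mice lay below all others. Human minus chimpanzee was 2.39 ± 0.20 (SE, limma adjusted p = 4.65e-06) and chimpanzee minus pellet was -2.67 ± 0.25 (SE, limma adjusted p = 3.48e-07). Nqo1 and Srxn1, textbook targets of NRF2, were lower than under pellet in both comparisons, with human minus pellet at -0.26 (limma adjusted p = 0.0447) and -0.50 (limma adjusted p = 0.00757). Chimpanzee minus pellet was -0.36 (limma adjusted p = 0.0159) for Nqo1 and -0.49 (limma adjusted p = 0.00653) for Srxn1. The other genes of this list were not called in these comparisons.

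Some markers of other liver cells were called in chimpanzee minus pellet, where 8.7% of all probe sets were (6.14% lower and 2.56% higher). A single call in a list this small is no result about a cell type. Of 6 Kupffer cell markers, Clec4f and Cd68 were lower under the chimpanzee diet than under pellet (-0.78 and -0.68, limma adjusted p = 0.037 and 0.00167), and their list averaged 4.81 to 5.84 in chimpanzee-diet mice and 5.49 to 6.20 in pellet-diet mice. Of 6 stellate cell markers, Col3a1 was lower (-1.22, limma adjusted p = 0.00361), and that list averaged 4.94 to 5.57 in chimpanzee-diet mice and 5.22 to 5.90 in pellet-diet mice. The median chimpanzee minus pellet difference was -0.61 for the Kupffer list and -0.18 for the stellate list. No hepatocyte, cholangiocyte, sinusoidal endothelial, erythroid or pancreas acinar marker was called between these diets. Of 8 pericentral markers, Slc1a2 was higher (0.66, limma adjusted p = 0.0173), and of 4 periportal markers Hal was lower (-0.98, limma adjusted p = 0.000105) and Pck1 higher (0.57, limma adjusted p = 0.0083). The part of these cell types in the member differences was not tested.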

How the data were processed

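Liver RNA of 24 mice was hybridised by the authors to Affymetrix mouse genome arrays. The authors describe log2 values made with the rma method, including quantile normalization, which gives arrays nearly equal distributions. The 90th percentiles of the deposited arrays ran from 5.67 to 6.62, and from 5.67 to 6.35 within batch 2. The deposited arrays were therefore not on a common distribution, and the reason was not tested. The annotation version behind the deposited values is not given in the sources used here. Precision is limited by the 6 mice per diet, which were separate animals. The authors divided litters among the diets, and the labels do not identify them. Brain arrays of the study were not analysed here.

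Of 45101 probe sets, 64 controls were set aside and 25541 were kept that exceeded the median of all values (3.1472) on at least 6 arrays. Each was tested as its own feature in a linear model with diet and batch (limma 3.58.1 in R 4.3.3, functions lmFit and eBayes). Two-sided p-values were adjusted by Benjamini-Hochberg over all of them, with a threshold of 0.05. Comparisons of the pooled human diets used the 18 mice concerned, and the others used all 24. The limma procedure was tested on simulated data. Gene names came from the array annotation, where 34945 probe sets had 1 symbol, 932 several and 9160 none, and lists of other genes used the probe set of highest mean.

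Every member probe set is accounted for, with values by diet for those called in any comparison. For the 2 members of smallest p, the 5 probe sets of other genes with the highest correlation are named, and of each list up to 4 genes of smallest p. Gclc and Mgst3 were named after their values were seen. The members and lists were chosen with earlier results of these data known. The alternatives were other filters, 1 probe set per gene, batch left out or taken singly, a replicate block, cyclic loess, array range or beta-actin as covariate, array weights, leaving out arrays, and the methods' procedure, in which the filter in at least 2 arrays stood in for detection p-values.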

Additional observations from a re-analysis of the deposited data

Results flagged for a closer look

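In each diet group of 6 mice the highest and lowest value of every member probe set was compared with its nearest neighbour, and a gap above Dixon's 95% critical share of the group's range marked a mouse as far from the others. This held in 4 of 60 groups, and chance marks about 1 group in 20. Fast food batch 2 replicate 2 was low for a Gstm1 probe set (7.92, nearest 8.33), for Gstm6 (6.07, nearest 6.77) and for Gstt1 (9.69, nearest 10.09). Cafeteria batch 2 replicate 2 was low for the first Gstm3 probe set (3.94, nearest 4.69).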

How the results depend on the processing

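The counts of called member probe sets were 4 over the 4 diets, 0 for human minus chimpanzee, 3 for human minus pellet, 3 for chimpanzee minus pellet, 0 for cafeteria minus fast food, and 7 of 60 over the single pairs of a human diet with chimpanzee or pellet. None of the 13 called member differences changed sign, while uncalled differences near 0 could, such as Gstt2 in chimpanzee minus pellet (-0.17 in batch 1, 0.13 in batch 2) and Gstm4 in cafeteria minus fast food (-0.20 in batch 1, 0.00 in batch 2). In the same order of comparisons, the counts were 2, 0, 1, 2, 0 and 2 with batch left out, 2, 0, 1, 2, 0 and 3 in batch 1 alone, and 0 throughout in batch 2 alone. Fits of a single batch had fewer mice and so fewer degrees of freedom. They were 7, 0, 8, 3, 0 and 14 with cyclic loess, 6, 0, 8, 4, 0 and 12 with the 90th percentile as covariate, 3, 0, 1, 1, 0 and 5 with the beta-actin difference as covariate, and 9, 3, 9, 4, 0 and 15 with array weights. Without the 4 arrays of lowest range they were 8, 1, 9, 4, 0 and 12. With the methods' procedure (unadjusted p under 0.01) they were 5, 3, 5, 2, 0 and 7, and 3, 0, 1, 2, 0 and 0 after Benjamini-Hochberg adjustment. Without both mice that lay apart in the outlier comparison, an alternative chosen after seeing the data, they were 6, 1, 3, 4, 0 and 9. With no filter on low values they were 4, 0, 3, 2, 0 and 6, and with 1 probe set per gene 4, 0, 3, 3, 0 and 7. For all these alternatives, the cause of a changed count was not tested. The shares of all probe sets called in these settings, and in those below, are not set beside the counts. A change in a count is therefore no result particular to the transferases.

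Leaving out each mouse in turn gave 3 to 6 calls over the 4 diets, 0 to 2 for human minus chimpanzee, 2 to 6 for human minus pellet, 2 to 4 for chimpanzee minus pellet, 0 to 0 for cafeteria minus fast food and 6 to 10 over the single pairs. With the replicate number as a replicate block the counts were 5, 0, 4, 4, 0 and 11. Deviations of mice with the same number correlated at a median r of 0.0138 (from -0.637 to 0.415, over 36 pairs). For mice with different numbers the median was -0.0176 (from -0.566 to 0.626, over 72 pairs). With so wide a spread these values cannot show whether the numbers pair the mice, and the labels do not say.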
